A study of Mus musculus with 6 samples.

Results

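The genes described here are 33 genes of the synaptic vesicle and of transmitter release, read in RNA-seq libraries of sorted olfactory bulb cells from control and Sox9 KO mice. They were chosen by gene symbol, with earlier results of these data known, out of 24421 gene names listed in each library, and all 33 were found. Each of them had reads in all 6 libraries (at least 2 reads), and each passed the minimum mean of 1 normalized count that left 18413 genes to be tested. All mice were adult males that received AAV-GFAP-iCre-P2a-TurboRFP in both olfactory bulbs, a virus that drives the recombinase Cre and the red fluorescent protein TurboRFP from the GFAP promoter, which is active mainly in astrocytes. The 3 Sox9 KO mice carried Sox9fl/fl, in which Cre removes part of Sox9. The 3 controls were C57BL/6J mice, called Sox9+/+ in the study's methods, so they received the same Cre without a floxed allele. The study's reporting form states for its animals in general that littermates were allocated to groups at random, and how these 6 mice were related is not given. After 4 weeks the TurboRFP-positive cells were collected by flow sorting, and each mouse gave 1 library. A sort of this kind keeps whatever carries the fluorescence, and in bulk libraries fewer cells of a type and less RNA per cell cannot be told apart.

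Chemical synapses release transmitter when a vesicle fuses with the presynaptic membrane. A v-SNARE on the vesicle, Vamp1 or Vamp2 (synaptobrevins), zips together with the t-SNAREs Snap25 and Stx1a (syntaxin 1A) on the plasma membrane, under the control of Unc13 proteins, complexins and calcium sensors. Afterwards the ATPase Nsf with its SNAP adaptors takes the complex apart, and dynamin and amphiphysin bring the membrane back. Synapsins tether vesicles in the reserve pool, and Rab3, the RIMs, Bassoon (Bsn) and Piccolo (Pclo) organise the active zone. In the olfactory bulb most neurons are inhibitory granule and periglomerular cells, which load vesicles through the vesicular GABA transporter Slc32a1. Most of these genes are known as neuronal, while Sypl, Nsf and a few others are used by many cell types.

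Reads on genes ranged from 18242129 to 86906527 per library, with KO replicate 2 the deepest, and 1 read was worth 0.395 to 1.58 normalized counts. Sox9 stood at 5185, 6562 and 4921 normalized counts in the 3 controls and at 52.6, 64.3 and 57.7 in the 3 KO libraries, a log2 fold change of -6.54 (SE 0.15, limma adjusted p = 2.5e-09), as the labels have it. The median log2 fold change over all genes tested was -0.07. Of the usual reference genes, Gapdh was called lower (-0.81, adjusted p = 0.00013), Actb was called higher (0.98, adjusted p = 0.0002) but stood at -0.05 under quantile normalization, and the ribosomal Rn45s took 14.2 to 22.4% of the reads. Markers of the cells in the sort also differed between the groups. The 12 astrocyte markers were all called lower in KO (summed level 258273 to 293289 in the controls and 24704 to 26728 in KO), and the 14 microglia and macrophage markers were all called higher (209007 to 237295 against 831208 to 976204). Of the 16 general neuron markers 15 were called lower and none higher (0 higher also at an unadjusted p and with edgeR and DESeq2), with summed levels of 16974 to 22387 in the controls and 3204 to 4775 in KO, and none of these markers was at 0. Among other lists, 7 of 8 oligodendrocyte, 6 of 6 oligodendrocyte precursor and 6 of 7 olfactory ensheathing cell markers were called lower, and endothelial markers were split (4 lower and 2 higher of 8). The part of these shifts in the results on the release genes was not tested beyond the comparison with the neuron markers given further on.

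Most release genes were far lower in the KO libraries. Of the 33, 27 were called lower, meaning a Benjamini-Hochberg adjusted p under 0.05 over all genes tested and a change of at least 1.5-fold. That is 81.8% of them, where 28.8% of all genes tested were called lower. Rph3a was the single gene called higher, where 22.2% of all genes were, and Vamp1, Nsf, Sypl, Syngr1 and Sv2b were not called. The median log2 fold change was -1.93, the middle part of the genes (quartiles) ran from -2.37 to -1.26, and the extremes were -5.27 for Sypl2 and 0.96 for Rph3a. Summed over the 33 genes, the libraries held 36244, 34116 and 40280 normalized counts in the controls and 12957, 16797 and 13229 in KO, so that the KO mean was 38.8% of the control mean. The 2 groups of sums did not overlap. Sypl and Nsf, both not called, held 3409 and 2130 of the KO mean sum of 14328. In the controls they held 2354 and 2675 of 36880.

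For 29 of the 33 genes every KO library lay below every control library (34.7% of all genes tested), and for 1 gene, Sypl, every KO library lay above (32.4% of all genes tested). The groups overlapped for Syngr1, Sv2b and Rph3a. In 23 genes the KO mean fell at 10 to 40% of the control mean. All 33 genes still had reads in all KO libraries, and 9 had a KO mean under 100 normalized counts.

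**Figure D1:**
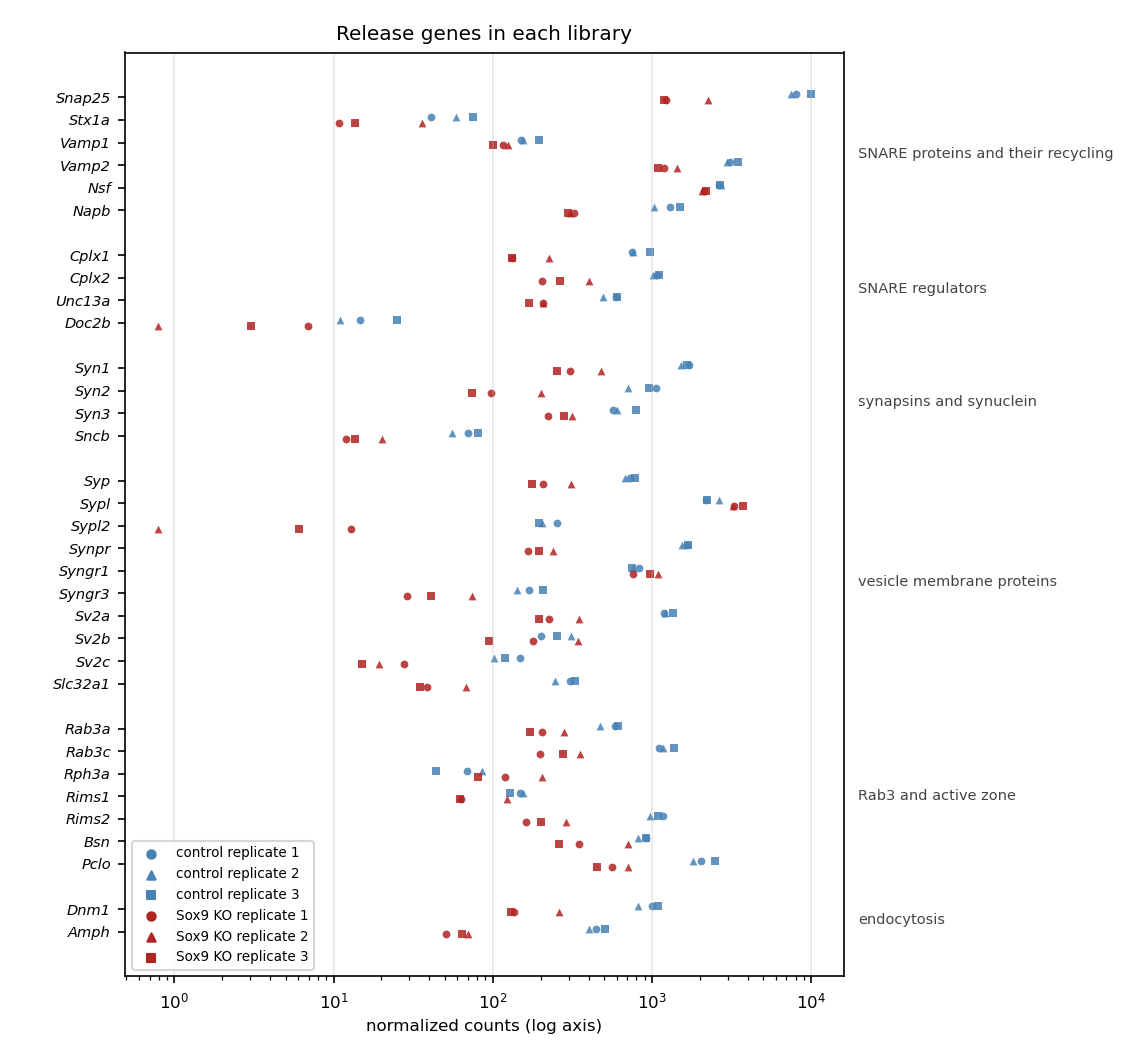
Normalized counts (log axis) of the 33 release genes in the 3 control libraries (blue) and the 3 Sox9 KO libraries (red), with a marker shape for each replicate and genes grouped by role. For 29 genes the red points lie to the left of all blue points. Sypl lies to the right, and Syngr1, Sv2b and Rph3a overlap.

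KO replicate 2 held more of these RNAs than the other KO libraries. It was the highest of the 3 KO libraries for 27 of the 33 genes (81.8%), against 35.1% of all genes tested, and for 87.5% of the neuron markers. The median difference of the release genes from the control mean, on the log2 scale, was -2.09, -1.55 and -2.07 in KO replicates 1, 2 and 3. This library was also the deepest, and the part of depth in the difference was not tested. Without it limma called 28 release genes lower and 0 higher, Rph3a having lost its call. With all 6 libraries edgeR, DESeq2 and the unadjusted p each gave 1 higher.

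**Figure D2:**
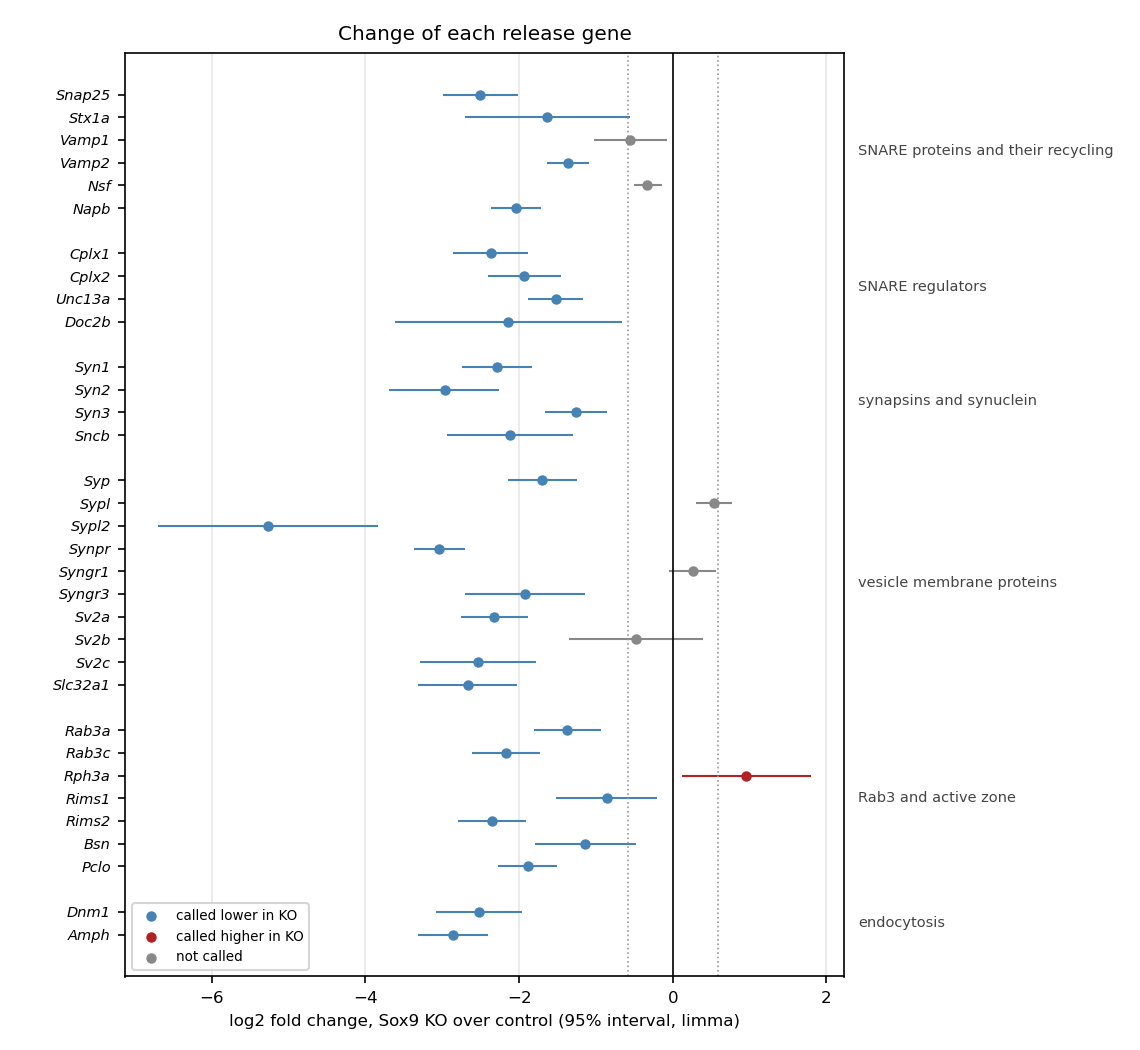
Log2 fold change of each release gene, Sox9 KO over control, with its 95% interval from limma, by role. The solid line marks no change and the dotted lines 1.5-fold. Genes called lower are blue (27), the gene called higher is red (Rph3a) and genes not called are grey (5). Sypl2 is farthest to the left at -5.27.

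Upstream sequence is shown for 5 of these genes. They are Sypl2, with the lowest fold change, Syn1 and Sv2c, both called lower, and Sypl and Rph3a. The last 2 are the genes whose KO mean was the farthest above the control mean. No gene with a mild fall is among them. Sequences are from RefSeq on build GRCm38.p6, are the 250 bases before a transcription start, and read 5′ to 3′ along the gene's strand. They lie at chrX:20920919-20921168 (Syn1, minus strand), chr13:96132578-96132827 (Sv2c, minus), chr3:108226600-108226849 (Sypl2, minus), chr12:32953695-32953944 (Sypl, plus, the first of its starts) and chr5:121009539-121009788 (Rph3a, minus, one of its 3 starts). Capitals mark matches, on either strand, to any of the short motifs AACAAT and ACAAAG (letters bound by Sox family factors), CAGCACC and GGACAGC (the half-sites of the neuron-restrictive silencer element), TGACGTC (a cyclic AMP response element core), CAGCTG (an E-box) and GGGCGG (a GC box).
Syn1: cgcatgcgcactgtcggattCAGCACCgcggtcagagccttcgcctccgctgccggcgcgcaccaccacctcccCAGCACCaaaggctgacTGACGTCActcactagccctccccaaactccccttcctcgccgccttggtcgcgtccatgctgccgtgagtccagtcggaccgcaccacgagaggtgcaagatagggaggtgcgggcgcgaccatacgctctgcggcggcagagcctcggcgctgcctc
Sv2c: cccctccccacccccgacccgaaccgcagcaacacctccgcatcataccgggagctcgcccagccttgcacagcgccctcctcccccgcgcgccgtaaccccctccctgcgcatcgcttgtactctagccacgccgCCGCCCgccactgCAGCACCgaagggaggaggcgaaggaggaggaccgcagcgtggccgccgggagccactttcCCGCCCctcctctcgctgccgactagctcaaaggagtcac
Sypl2: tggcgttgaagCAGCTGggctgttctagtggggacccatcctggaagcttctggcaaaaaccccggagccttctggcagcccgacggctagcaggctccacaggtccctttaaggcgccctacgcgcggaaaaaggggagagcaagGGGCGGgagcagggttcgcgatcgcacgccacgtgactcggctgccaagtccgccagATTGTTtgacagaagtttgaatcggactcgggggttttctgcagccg
Sypl: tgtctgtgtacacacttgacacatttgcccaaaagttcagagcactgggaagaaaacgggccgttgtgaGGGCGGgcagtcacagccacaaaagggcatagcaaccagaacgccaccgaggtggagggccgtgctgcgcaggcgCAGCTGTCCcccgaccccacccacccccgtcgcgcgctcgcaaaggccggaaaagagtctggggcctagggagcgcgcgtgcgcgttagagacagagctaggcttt
Rph3a: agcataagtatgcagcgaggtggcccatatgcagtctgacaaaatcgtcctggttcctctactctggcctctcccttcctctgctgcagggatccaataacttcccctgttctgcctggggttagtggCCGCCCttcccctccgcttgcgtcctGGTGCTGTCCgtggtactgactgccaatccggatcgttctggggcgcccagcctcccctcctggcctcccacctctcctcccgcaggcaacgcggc
In Syn1 the TGACGTC matches on both strands overlap, in Rph3a CAGCACC and GGACAGC overlap on the minus strand, and in Sypl CAGCTG and GGACAGC overlap. Among the release genes searched, silencer half-sites lay before a start only in Syn1, Sv2c, Sypl and Rph3a, and AACAAT only in Sypl2. In these motifs the windows shown are therefore not typical of the release genes.

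The RefSeq table held promoters for 27 of the 33 genes, with 36 starts. The 6 others are Snap25, Vamp2, Doc2b, Syn3, Syngr3 and Rims2. Over the 250 bases before each start, GC content had a median of 61.2% in the release genes and 52.4% in all promoters of the table. Motifs were searched from 250 bases before to 50 bases after each start. CAGCACC was found in 4 of the 27 genes (14.8%), namely Rph3a, Sv2c, Syn1 and Unc13a, and in 8.14% of all genes in the table. GGACAGC was found in 3 (Rph3a, Sypl and Unc13a, 11.1%, against 7.59%), and TGACGTC in 2 (Rab3a and Syn1, 7.41%, against 3.6%). The E-box CAGCTG was in 11 (40.7%, against 18.3%) and the GC box GGGCGG in 20 (74.1%, against 38.2%). AACAAT was present in Sypl2 alone (3.7%, against 12.2%) and ACAAAG in Nsf alone (3.7%, against 21%). Among the genes tested in these libraries, 60.4% of those in the table held the GC box and 18.9% the E-box. The shares of tested genes were 8.95% for CAGCACC, 8.96% for GGACAGC and 5.3% for TGACGTC. For AACAAT and ACAAAG they were 7.8% and 17.6%. These matches describe the letters of short windows and carry no test.

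Among the SNARE proteins and the proteins that recycle them, 4 of 6 genes were called lower. Snap25, the release gene with the highest counts in the controls, stood at 8048, 7459 and 9987 normalized counts in the controls and at 1224, 2250 and 1186 in KO. No library of one group reached the other. The mean went from 8498 ± 1323 (SD, n = 3) to 1554 ± 604, a log2 fold change of -2.51 (SE 0.22, adjusted p = 3.8e-06). Vamp2, the main synaptobrevin of the brain, held 3086, 2963 and 3452 against 1184, 1444 and 1091. It fell less than Snap25, with a log2 fold change of -1.36 (SE 0.12, adjusted p = 4e-06). Napb, the brain form of the SNAP adaptor, stood at 1309, 1038 and 1504 in the controls and at 323, 304 and 299 in KO (-2.04, SE 0.15, adjusted p = 9.8e-07), and here the KO libraries were close together and far below all controls. Stx1a was sparse, at 40.9, 59.2 and 75.7 against 10.9, 35.9 and 13.7 (-1.63, SE 0.48, adjusted p = 0.014). Its highest KO library came near its lowest control, and the call was lost without KO replicate 3 (adjusted p = 0.064), control replicate 2 (0.057) or control replicate 3 (0.074), and under quantile normalization (-0.78, adjusted p = 0.17).

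The other 2 genes of this group were not called. Nsf, which takes apart SNARE complexes on many membranes of the cell, had the tightest replicates of the set, 2623, 2714 and 2687 in the controls and 2134, 2069 and 2186 in KO. Its KO libraries all lay below the controls, but by less than 1.5-fold (log2 fold change -0.33, SE 0.08, adjusted p = 0.0058). Vamp1, the synaptobrevin of a smaller set of neurons, read 151, 156 and 195 against 116, 124 and 100. Here too the groups did not overlap while the change stayed short of 1.5-fold (-0.55, 95% interval -1.03 to -0.07, adjusted p = 0.046). Without KO replicate 2 Vamp1 passed both limits, with -0.62 and an adjusted p of 0.049. Under quantile normalization, which forces the same distribution of values on all libraries, its sign turned, to 0.13. With libraries scaled to the same total Vamp1 was called lower (-0.79, adjusted p = 0.012), and with the same total without Rn45s both Vamp1 (-0.88, adjusted p = 0.0053) and Nsf (-0.66, adjusted p = 6.8e-05) were.

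All 4 SNARE regulators were called lower, with a median log2 fold change of -2.03. Complexins clamp and then promote the assembled SNARE complex. Cplx1 stood at 751, 757 and 971 in the controls and at 133, 225 and 132 in KO (-2.37, SE 0.22, adjusted p = 6e-06), and Cplx2 at 1070, 1015 and 1102 against 205, 402 and 263 (-1.93, SE 0.21, adjusted p = 2.1e-05). In both genes KO replicate 2 was the highest KO library and still far below every control. Unc13a, the priming factor Munc13-1, went from 592, 491 and 604 to 206, 208 and 170 (-1.52, SE 0.16, adjusted p = 1.4e-05). Doc2b, a calcium sensor for spontaneous and asynchronous release, was the rarest gene of the set, at 14.6, 11 and 25.2 normalized counts in the controls and 6.95, 0.79 and 3.04 in KO. In KO replicate 2, the deepest library, it had 2 reads. Its log2 fold change of -2.14 (SE 0.66, adjusted p = 0.017) was not called without KO replicate 2 (-1.59, adjusted p = 0.054) or without control replicate 3 (-1.83, adjusted p = 0.072), nor under quantile normalization (-1.35, adjusted p = 0.096).

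Synapsins and beta-synuclein were called lower in 4 of 4 cases. Syn1 held 1707, 1525 and 1652 normalized counts in the controls and 304, 480 and 252 in KO, and Syn2 held 1054, 711 and 966 against 97.3, 202 and 74.4. Neither overlapped, and Syn2 fell the most of the 3 synapsins (log2 fold change -2.97, SE 0.32, adjusted p = 1.8e-05, beside -2.29, SE 0.20, adjusted p = 4.4e-06 for Syn1). Sncb, a presynaptic protein of the synuclein family, read 70.1, 55.7 and 80.4 against 11.9, 20.1 and 13.7 (-2.12, SE 0.37, adjusted p = 0.00056). Syn3 read 567, 601 and 796 against 223, 314 and 280, a smaller fall (-1.26, SE 0.18, adjusted p = 0.00014). The value of Syn3 is uncertain. Of its 12282 exonic bases in the GENCODE annotation, 1733 overlap exons of Timp3 on the other strand, and the sources used here do not say whether reads were counted by strand. Timp3, an inhibitor of metalloproteinases looked at after its overlap was found, had far higher counts, at 20902 ± 2377 in the controls and 2242 ± 434 in KO, and fell by 3.23 on the log2 scale. How many Syn3 reads came from Timp3 was not tested. Smaller overlaps with another listed gene were found for Unc13a (495 bases), Syn2 (90), Sv2b (47), Rab3a (29) and Syn1 (9).

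The 10 vesicle membrane proteins were the most mixed group, with 7 called lower and 3 not called. Synaptophysin-family proteins span the vesicle membrane 4 times. Syp, a classic marker of synaptic vesicles, stood at 734, 682 and 782 in the controls and at 206, 310 and 176 in KO (log2 fold change -1.70, SE 0.20, adjusted p = 3.5e-05). Synpr (synaptoporin), a close relative of Syp, went from 1657, 1542 and 1694 to 166, 240 and 194. This was a narrow spread within each group and an 8.15-fold difference between their means (-3.04, SE 0.15, adjusted p = 7.3e-08). Sypl2, known chiefly from skeletal muscle, where its protein is called mitsugumin 29, had 253, 204 and 194 normalized counts in the controls and 12.9, 0.79 and 6.08 in KO. Its KO mean was 3.04% of the control mean, the lowest share of any release gene (-5.27, SE 0.64, adjusted p = 4.4e-05). In KO replicate 2 it was represented by 2 reads, so that the low end rests on few reads. The lowest of the neuron markers stood at -3.02 and the lowest of the astrocyte markers at -5.25 (median -3.84). Which cells held Sypl2 was not tested. The study reports that qRT-PCR of select genes bore out its RNA-seq, and its primer list includes Sypl2.

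Sypl, the relative of synaptophysin found on transport vesicles of most cell types, went the other way, at 2189, 2656 and 2216 in the controls and 3281, 3219 and 3728 in KO. All KO libraries were above all controls, but the change stayed under 1.5-fold (log2 fold change 0.54, SE 0.11, adjusted p = 0.0014). It passed that limit without control replicate 2 (0.63, adjusted p = 0.0018). Syngr1, a synaptogyrin, read 829, 759 and 755 against 765, 1092 and 977. The groups overlapped, and the interval of its log2 fold change, -0.05 to 0.57, included 0 (adjusted p = 0.13). Syngr3 in contrast fell from 168, 143 and 206 to 28.8, 73.8 and 41 (-1.92, SE 0.35, adjusted p = 0.00078).

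The SV2 transporters, glycoproteins of vesicles and the receptors of botulinum toxin A, split within the family. Sv2a stood at 1190, 1208 and 1360 in the controls and at 227, 350 and 196 in KO (log2 fold change -2.32, SE 0.20, adjusted p = 3e-06), and Sv2c at 148, 102 and 120 against 27.8, 19.3 and 15.2 (-2.53, SE 0.34, adjusted p = 8.4e-05). Sv2b read 202, 310 and 252 against 178, 344 and 94.2. Here KO replicate 2 was the highest of all 6 libraries and KO replicate 3 the lowest, and the difference was not distinguishable from 0 (-0.48, 95% interval -1.35 to 0.39, adjusted p = 0.31). Without KO replicate 2 it was called lower (-0.95, adjusted p = 0.027). Slc32a1, which marks inhibitory neurons, held 308, 248 and 329 against 38.7, 67.9 and 34.9. Its KO libraries sat at 16% of the control mean on average (-2.67, SE 0.29, adjusted p = 1.7e-05), beside the summed inhibitory neuron markers, which stood at 17.1%. With Sypl and Syngr1 not lower in KO, the vesicle membrane proteins took 19.6 to 23% of the summed counts of the 33 genes in the controls and 34 to 41.3% in KO.

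Rab3 and its partners at the active zone were called lower in 6 of 7 cases. Rab3a, the main vesicle GTPase of the brain, stood at 583, 473 and 612 in the controls and 203, 279 and 172 in KO (log2 fold change -1.37, SE 0.20, adjusted p = 0.00016). Rab3c fell from 1115, 1172 and 1373 to 199, 354 and 278 (-2.17, SE 0.20, adjusted p = 5e-06). Among the scaffold proteins, Rims2 went from 1182, 974 and 1097 to 163, 287 and 201 (-2.35, SE 0.20, adjusted p = 2.8e-06) and Pclo from 2025, 1813 and 2506 to 562, 713 and 454 (-1.89, SE 0.17, adjusted p = 5.5e-06). All 4 had KO replicate 2 as the highest KO library, and none overlapped.

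Bsn and Rims1 fell less. Bsn read 915, 822 and 913 in the controls and 349, 710 and 260 in KO, so that KO replicate 2 came close to the controls (log2 fold change -1.14, SE 0.29, adjusted p = 0.0067). Without KO replicate 2 the change was -1.55. Rims1 read 149, 154 and 129 against 63.5, 123 and 62.3, again with KO replicate 2 next to the lowest control (-0.86, SE 0.30, adjusted p = 0.028). Its call rested on several libraries. It was lost without KO replicate 1 or 3 (adjusted p 0.09 and 0.11) and without control replicate 1, 2 or 3 (0.083, 0.098 and 0.061), and edgeR gave an adjusted p of 0.055. Under quantile normalization its log2 fold change was -0.09 (adjusted p = 0.79).

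Rph3a (rabphilin), an effector of Rab3 and Rab27 on vesicles, was the exception, at 68.7, 86 and 44.1 in the controls and 119, 205 and 80.5 in KO. The lowest KO library lay below the highest control. The log2 fold change of 0.96 (SE 0.38, 95% interval 0.12 to 1.80, adjusted p = 0.048) passed both limits narrowly. It was kept without KO replicate 3 (1.28, adjusted p = 0.029) and lost when any other library was left out, that is KO replicate 1 (0.085), KO replicate 2 (0.19), or control replicate 1 (0.098), 2 (0.058) or 3 (0.19). The count models on the recovered reads gave 1.07 (edgeR, adjusted p = 0.029) and 1.03 (DESeq2, adjusted p = 0.022).

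The 2 genes of vesicle endocytosis were both called lower. Dnm1, the neuronal dynamin that cuts the neck of the endocytic pit, stood at 1001, 814 and 1095 in the controls and at 137, 262 and 131 in KO. Amph (amphiphysin), which recruits it, stood at 446, 401 and 504 against 50.6, 69.5 and 63.8. The groups were far apart for both, with log2 fold changes of -2.52 (SE 0.25, adjusted p = 1e-05) and -2.86 (SE 0.21, adjusted p = 9.3e-07). Together they took 3.56 to 3.99% of the counts of the 33 genes in the controls and 1.45 to 1.97% in KO.

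Per kilobase of exon the order of levels changed between the groups. In the controls Snap25 led at 1251 normalized counts per kb, followed by Vamp2 (831), Syn1 (493) and Cplx1 (378). In KO the first place was held by Sypl at 409 per kb, followed by Vamp2 (325), Nsf (255) and Snap25 (229). Sypl and Nsf, both used by many cell types, therefore stood among the most abundant of the 33 in KO, while Syn1 stood at 105 and Cplx1 at 74.7.

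The release genes were next set against the mean of the neuron markers of the same library. The markers themselves fell by unequal amounts, with log2 fold changes from -3.02 to 0.27 and quartiles of -2.68 and -1.53. A gene below their mean can still lie within their range, so this comparison cannot separate a shared neuronal loss from a loss beyond it. The mean log2 level of the 16 markers differed by -2.05 between KO and control, and this level was subtracted from each gene in each library. On this scale the median difference of the release genes was 0.13, where it was 1.99 over all genes tested. Thus the median release gene changed by about as much as the mean of the markers. Of the 33, 9 lay below in every KO library (7.59% of all genes tested), 14 lay above in every KO library (70.3% of all genes tested) and 10 overlapped.

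The 9 genes that were lower against the marker mean were Snap25, Cplx1, Syn2, Sypl2, Synpr, Sv2a, Slc32a1, Dnm1 and Amph. Of these only Sypl2 (log2 fold change -5.27) fell clearly more than the lowest marker (-3.02, SE 0.24). Synpr (-3.04, SE 0.15) fell by about as much as that marker. With edgeR Synpr stood at -2.96 and the lowest marker at -2.99, and with DESeq2 they stood at -3.01 and -3.06. Synpr, for instance, stood at 1.87, 1.77 and 1.61 log2 units above the marker mean in the controls and at 0.57, 0.67 and 1.08 in KO. Amph stood at -0.02, -0.17 and -0.13 against -1.12, -1.11 and -0.52. Snap25 came down by less, from 4.15, 4.04 and 4.17 to 3.45, 3.89 and 3.68, with no overlap. Syn1, Cplx2, Napb and Rab3c, all several-fold lower on the scale of normalized counts, overlapped here.

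The 14 genes that lay above were Vamp1, Vamp2, Nsf, Unc13a, Syn3, Syp, Sypl, Syngr1, Sv2b, Rab3a, Rph3a, Rims1, Bsn and Pclo. Rph3a differed the most on this scale, from -2.70, -2.38 and -3.62 to 0.10, 0.44 and -0.19, followed by Sypl, with a difference of 2.59. Nsf went from 2.53, 2.58 and 2.28 to 4.25, 3.77 and 4.56. Pclo was at the other end, with a difference of 0.17. Since most genes of the libraries rose against the neuron markers, a gene above them is the common case here and a gene below them the rare one. Which cells the remaining RNA came from was not tested.

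**Figure D3:**
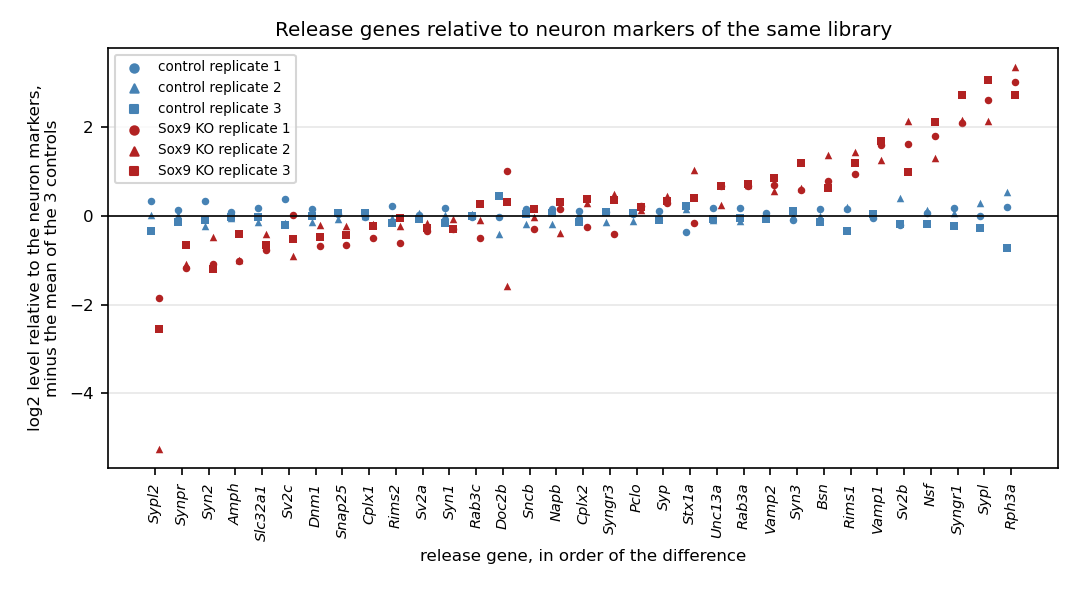
Log2 level of each release gene relative to the mean of the 16 neuron markers in the same library, less its mean over the 3 controls, in order of the difference between KO (red) and control (blue). At the left, Sypl2, Synpr, Syn2 and Amph lie below the controls, and at the right Nsf, Syngr1, Sypl and Rph3a lie above them.

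Many release genes have a relative that does the same kind of work on other membranes, and 27 were listed as broadly expressed. The list came from general knowledge, and how broadly each gene is expressed was not checked. Not all of it is broad, and Unc13d, for example, is known from secretory cells of the blood. The counts below are those of the list as drawn up. Of the 27, 26 were tested (Vamp7 was listed at 0), with a median log2 fold change of 0.64. In KO, 14 were called higher (53.8%, where 22.2% of all genes tested were) and 3 lower (11.5%, where 28.8% were). The other 9 were not called. Snap23, the relative of Snap25 outside neurons, stood at 2196, 2426 and 2557 in the controls and 5835, 4507 and 6599 in KO (1.22, SE 0.13, adjusted p = 2.1e-05). Bin1 (amphiphysin 2) rose 2.84-fold, from 2526 ± 41.5 to 7172 ± 929 (adjusted p = 7.5e-07), Stx7 of endosomes by 0.68 (adjusted p = 0.0026) and Vamp3 (cellubrevin) by 0.70 (adjusted p = 0.00016). Dnm2, the ubiquitous dynamin and the relative with the highest counts in the controls, stayed under 1.5-fold (0.50, SE 0.08, adjusted p = 0.00032). The 3 that were lower are Snap47 (-1.45, SE 0.14, adjusted p = 7.8e-06), Dnm3 (-2.43, SE 0.30, adjusted p = 5.2e-05) and Erc1 (-2.35, SE 0.13, adjusted p = 1.5e-07).

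Within a library the ratio of a release gene to its relative moved by more than either gene alone in most pairs. The 10 pairs were chosen after the values of these genes were known and are given as a description. The log2 ratio of Snap25 to Snap23 was 1.82 ± 0.18 (SD, n = 3) in the controls and -1.91 ± 0.79 in KO. That of Amph to Bin1 was -2.51, -2.66 and -2.29 against -7.17, -6.82 and -6.57, and that of Unc13a to Unc13d, a priming factor of secretory cells of the blood, was 2.79, 2.45 and 2.87 against -0.73, -0.86 and -0.57. In all 10 pairs the groups did not overlap, with differences from -1.11 (Syngr1 to Syngr2) to -4.36 (Amph to Bin1). Most pairs set a gene that was lower in KO over one that was higher, so this separation followed from the choice of pairs. The share of other gene pairs that separate was not computed. Even Syngr1, whose own level overlapped between the groups, was lower against Syngr2, at -0.21, -0.21 and -0.19 against -1.89, -1.08 and -0.97. The microglia and macrophage markers, whose summed level in KO was 416% of that in the controls, moved the same way as the relatives. The part of such cells in the levels of the relatives and in these ratios was not tested.

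**Figure D4:**
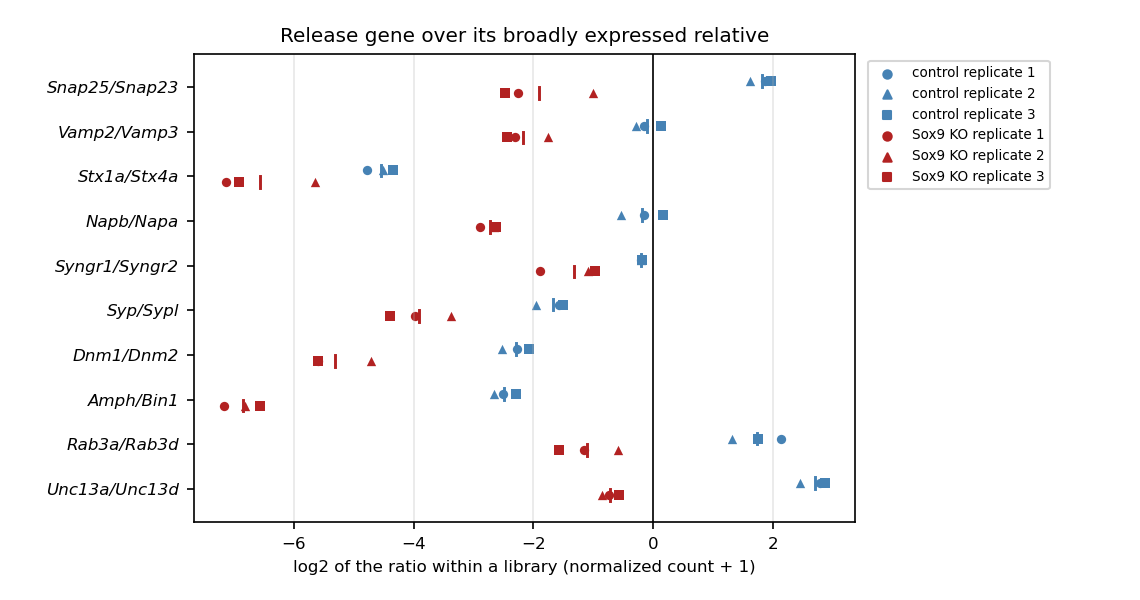
Log2 ratio, within each library, of 10 release genes to a relative, with short bars at the means of the 3 control (blue) and 3 Sox9 KO (red) libraries. Counts are not divided by length, so only the shift between groups is to be read. The red points lie to the left in all 10 pairs, by 1.11 (Syngr1 to Syngr2) to 4.36 (Amph to Bin1) log2 units.

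Of 26 other genes of the release machinery, listed as neuronal from general knowledge, 25 were tested (Cplx4 was listed at 0). Of these 14 (56%, against 28.8% of all genes tested) were called lower, 1 higher and 10 were not called, with a median log2 fold change of -1.51. The summed KO level of this list was 85.9% of the control mean, but a single gene, Synj1, carried much of it. Synj1 held 5689 of the mean sum of 16283 in the controls and 9603 of 13992 in KO. Cadps, a priming factor of dense-core vesicles, went from 1372 ± 290 to 277 ± 31.1 (-2.29, SE 0.16, adjusted p = 9e-07), and Snap91 (AP180), a clathrin adaptor, from 1287 ± 167 to 240 ± 74.5 (-2.45, SE 0.20, adjusted p = 2.4e-06). The gene called higher was Synj1 (synaptojanin 1), a lipid phosphatase of vesicle uncoating. It stood at 5620, 5624 and 5824 in the controls and 9734, 9080 and 9996 in KO (0.75, SE 0.08, adjusted p = 1.8e-05).

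Lists of markers of single neuron types showed how the release genes lay among them. The summed KO level was 19.6% of control for the 16 general neuron markers, 17.1% for 10 inhibitory neuron markers, 35.4% for 8 markers of mitral and tufted cells, 47.6% for 8 of olfactory sensory neurons and 9.27% for 10 of migrating neuroblasts. Their median log2 fold changes were -2.21, -2.88, -1.58, -1.02 and -3.65, beside -1.93 for the release genes. Among the general markers Map2 went from 6216 ± 122 to 1009 ± 230, and among those of inhibitory neurons Gad1, the enzyme of GABA synthesis, from 2749 ± 450 to 322 ± 108. Of the 7 mitral and tufted cell markers tested, 4 were called lower (57.1%, against 28.8% of all genes tested) and 3 were not called. Reln went from 1209 ± 182 to 402 ± 30.8 (-1.58, adjusted p = 4.1e-06) and Cdhr1 from 838 ± 78.2 to 241 ± 62.4 (-1.83, adjusted p = 1.6e-05). Slc17a7, the glutamate transporter of mitral and tufted cells, read 298, 272 and 257 in the controls and 130, 302 and 80.5 in KO. Its groups overlapped and it was not called (-0.90, SE 0.39, adjusted p = 0.067). The 12 astrocyte markers stood at 9.21% of control, with a median of -3.84. No test compared these lists with each other.

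**Figure D5:**
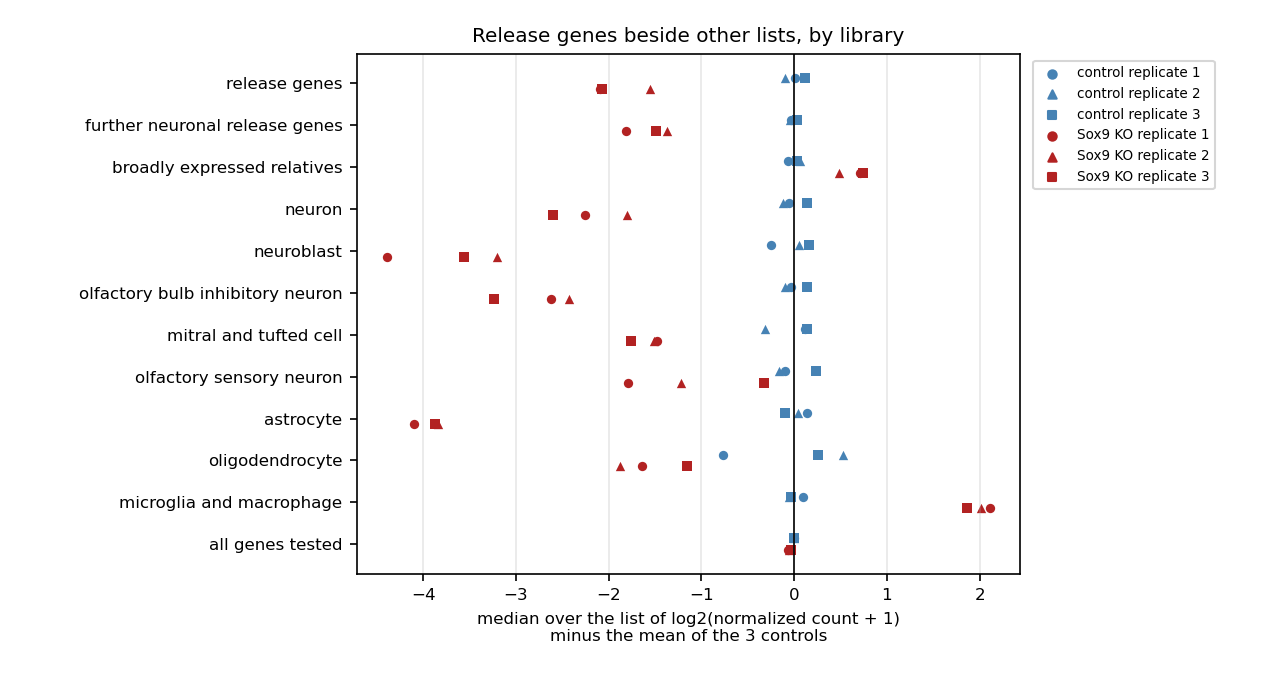
Median over each list of the log2 level in a library less the mean of the 3 controls, for the release genes, their relatives and marker lists (control blue, Sox9 KO red). The release genes sit at -2.09, -1.55 and -2.07 in KO, near the general neuron markers and far from the astrocyte markers, whose median fold change was -3.84. The relatives listed as broadly expressed and the microglia and macrophage markers lie to the right of 0.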

How the data were processed

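RNA was sequenced from TurboRFP-positive olfactory bulb cells of 3 control and 3 Sox9 KO mice. The authors used STAR 2.5.0a for mapping to mm10, GenomicAlignments for read counts and DESeq2 1.20.0 for normalization. The sources used here give neither the annotation nor the strandedness. The deposited signal values, named RPM, are reads scaled by a single factor in each library, since 100% of the values were whole reads within 0.01 read. They are called normalized counts.

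Genes whose mean reached 1 normalized count (18413, with 6008 left out) were fitted on log2(normalized count + 1) by limma 3.58.1 (R 4.3.3), using a variance trend and no replicate block. Fold changes are on that scale and understate the change of low genes. P-values are two-sided and adjusted over all genes tested, and a gene was called at an adjusted p under 0.05 and 1.5-fold. edgeR 4.0.16 and DESeq2 1.42.0 were run on the recovered reads. The fit was checked on simulated data. Depth per library is given in the report.

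The 33 genes, the lists and the rules were chosen with earlier results of these data known. All 33 genes are named, as are Sox9, Actb, Gapdh and Rn45s, of each further list of release genes the 4 with the highest mean and those called against the list's median, and of a marker list at most 3. A gene that this rule would name is not reported here. Timp3, the genes of the pairs, Slc17a7 as a marker and genes given as exceptions were named after their values were seen. Exonic lengths and overlaps are from GENCODE vM21, and promoters from RefSeq. Alternatives to the pseudocount, filter, scaling, variance model, block, tool and thresholds were tried, as was leaving out 1 library at a time.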

Additional observations from a re-analysis of the deposited data

How the results depend on the processing

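Of the 33 release genes, 23 were called in the same direction under all 19 alternatives tried for each gene. The calls of Rph3a, Rims1, Stx1a, Doc2b and Bsn were lost under at least 1. The number called lower ranged from 23 with no filter on low values to 29 with libraries scaled to the same total without Rn45s. Leaving out 1 library in turn gave 24 (without control replicate 3) to 28 called lower and 0 to 1 called higher (Sypl, not Rph3a, without control replicate 2). Rph3a, the gene called higher, was lost with no filter, with a pseudocount of 0.1, without the variance trend and with libraries scaled to the same total, with or without Rn45s, so that 0 release genes were called higher. With no fold limit 2 were. In these counts of 0 the other tools, edgeR and DESeq2, still called it.

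Scaling moved the values of all genes. Under quantile normalization the median log2 fold change of the release genes was -1.51, and with the same total without Rn45s it was -2.25. Vamp1 (0.13) and Sv2b (0.07) changed sign under the first and Syngr1 (-0.07) under the second. None of these 3 was called in those fits. Over all genes, 5299 were called lower and 4090 higher. The counts were 4100 and 5380 under quantile normalization, 6191 and 2936 with the same total, and 6595 and 2628 with the same total without Rn45s. Of the further neuronal release genes, 3 were called higher under quantile normalization or with no fold limit, 0 under either scaling to the same total, and 1 to 2 when a library was left out (2 without KO replicate 3 or control replicate 2). The cause was not tested. The GC box was 35.9 percentage points more frequent in the release gene promoters than in all promoters, and 13.7 more than in those of the genes tested.

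Replicate numbers are shared between the groups, but same-numbered libraries did not deviate together (correlations of -0.051, -0.013 and -0.013), and no library correlated with its own number best. With the replicate block 27 release genes were called lower and 1 higher, and 15 further neuronal release genes were called lower.

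Doc2b and Sypl2 had the fewest reads of the release genes in KO, each at 2 reads in KO replicate 2, although that library was the deepest.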
